A study of Mus musculus with 23 samples.

Results

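The cells described here are mouse KSL cells (c-Kit+ Sca1+ Lineage- bone marrow cells, the sorted fraction that holds the blood stem cells and the multipotent progenitors) in which the transcripts of 3 granule proteases were found together. All 11 gene-expression matrices were read. A barcode was kept with at least 1000 unique molecular identifiers (UMIs, which count transcript molecules), at least 500 genes and at most 10% mitochondrial UMIs. A kept cell was a member when it held at least 1 UMI of each of Elane, Prtn3 and Ctsg and fewer than 3 of the B-lineage genes Ebf1, Vpreb1, Vpreb3, Igll1, Cd79a and Pax5. The rule took 25873 of 78945 kept cells. Of these, 473 were among the 50460 kept cells of untransplanted mice and 25400 among the 28485 kept cells of transplanted mice.

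All groups carried Mx1-Cre, a Cre recombinase behind an interferon-inducible promoter, and this includes the Control group. The Jarid2 KO and Ezh2 KO groups also had floxed alleles of Jarid2 (Jarid2 fl/fl) or Ezh2 (Ezh2 fl/fl), and the alleles of the Control group were not given beyond Mx1-Cre. At baseline the mice were 2 months old and untransplanted, and their marrow was enriched for c-Kit before the sort. Each genotype had 1 male library (number 1) and 1 female library (number 2), sequenced with 6 barcoded surface antibodies. After transplantation the cells were CD45.2 donor KSL cells from primary recipients, 18 weeks after 500000 donor and 500000 CD45.1 competitor marrow cells entered lethally irradiated mice, with 1 Control, 2 Ezh2 KO and 2 Jarid2 KO libraries. The number of animals behind a library was not given, so the p-values measure only the spread between these libraries, which may be partly technical.

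The label of these cells as myeloid-primed held at baseline and did not hold after transplantation. At baseline the members made up 0.419 to 2.06% of the kept cells of a library, and the 3 genes were found together in 0 to 0.223% of the B-lineage cells (3 or more of the 6 B genes) and in 0 to 0.51% of erythroid cells (3 or more of 8 erythroid genes). After transplantation they were found together in 72.2 to 100% of the B-lineage cells and in 84.1 to 100% of the erythroid cells, against 76.7 to 98.2% of all kept cells. After transplantation the 3 granule genes were therefore about as frequent in B-lineage and erythroid cells as in all kept cells. For this reason values are also given for granule-high members, in which Elane, Prtn3 and Ctsg together made up at least 0.5% of the UMIs of a cell, a limit chosen after the distribution was seen. There were 214 granule-high members at baseline and 9154 after transplantation.

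The kept cells of a library held 73238198 to 143133494 UMIs. The members summed to 865678 to 3823592 UMIs per library at baseline and to 71748209 to 103008444 after transplantation. Members were deeper than the other cells, with a median of 24511 against 11472 UMIs at baseline and 15821 against 11070 after transplantation. At baseline 2.82 to 5.82% of the barcodes of a library exceeded the mitochondrial limit. After transplantation the value was 43.4% for Control, 25.7 and 27.4% for Ezh2 KO and 36.6 and 37.4% for Jarid2 KO. This loss thus differed between genotypes, and its part in the shares after transplantation was not tested. Libraries labelled Ezh2 KO after transplantation held Xist at 0.0971 and 0.153 CPM (counts per 1000000 UMIs) in members, while the Control (1130 CPM) and Jarid2 KO libraries (1030 and 812 CPM) held both Xist and Y-linked transcripts, so sex and genotype cannot be told apart there except in male cells (cells with a Y-linked UMI and no Xist UMI).

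**Figure D1:**
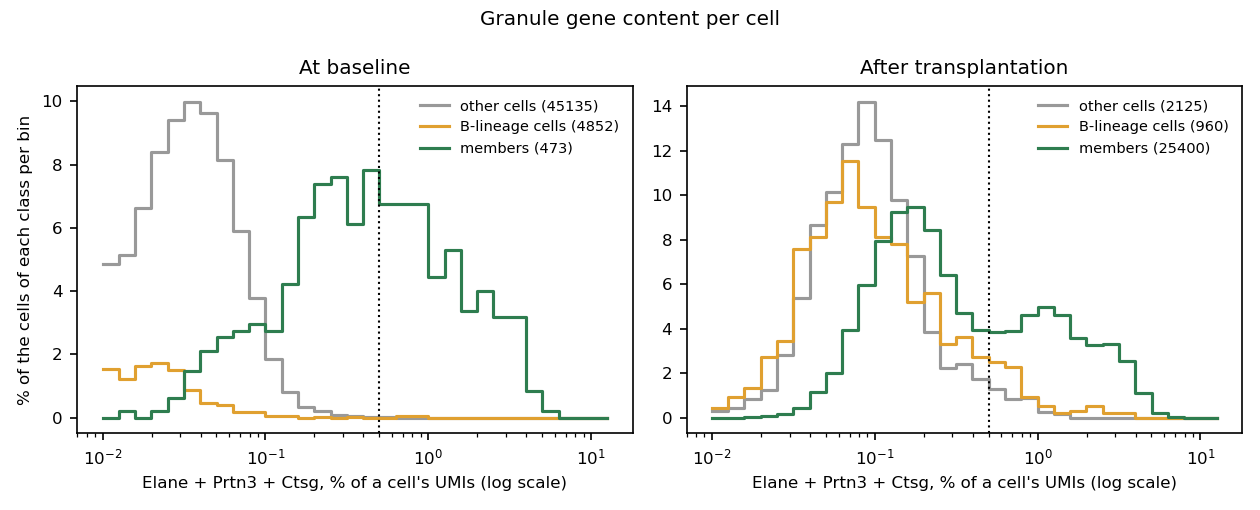
Distribution over cells of the share of UMIs in Elane, Prtn3 and Ctsg (log axis, % of a cell's UMIs), as % of the cells of each class per bin, for 473 members, 45135 other cells and 4852 B-lineage cells at baseline (left) and 25400, 2125 and 960 after transplantation (right). Cells under 0.01% are in the denominators and outside the axis, the dotted line is the 0.5% limit, and a second mode of members above it appears after transplantation.

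Elane (neutrophil elastase), Prtn3 (proteinase 3) and Ctsg (cathepsin G) encode serine proteases that, with myeloperoxidase (Mpo), are packed into the primary or azurophil granules of granulocytes and monocytes. Their transcription begins early, in granulocyte and monocyte progenitors, under the control of factors that include PU.1, C/EBP alpha and Myb. Secondary granule proteins such as lactoferrin (Ltf) and cathelicidin (Camp) follow later, with C/EBP epsilon. Ezh2 is the catalytic subunit of Polycomb repressive complex 2, which methylates histone H3 at lysine 27, and Jarid2 is an accessory subunit that helps to recruit the complex.

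The promoters of the 3 genes of the rule and of Mpo are shown because these genes chose and mark the cells. Each is the 150 bases before the annotated start in RefSeq on GRCm38.p6, 5′ to 3′ on the strand of the gene. Capitals mark matches to GAGGAA (a PU.1 core) and to AACNG (a Myb core) on either strand, and to TATAAN on the strand of the gene.
Elane, chr10:79886162-79886311, plus strand: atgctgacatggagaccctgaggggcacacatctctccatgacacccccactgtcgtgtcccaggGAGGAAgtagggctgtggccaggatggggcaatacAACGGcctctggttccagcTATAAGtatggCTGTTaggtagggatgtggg
Prtn3, chr10:79879517-79879666, plus strand: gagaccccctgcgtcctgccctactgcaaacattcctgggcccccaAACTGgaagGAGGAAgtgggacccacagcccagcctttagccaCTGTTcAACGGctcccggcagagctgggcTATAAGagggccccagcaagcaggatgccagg
Ctsg, chr14:56102575-56102724, minus strand: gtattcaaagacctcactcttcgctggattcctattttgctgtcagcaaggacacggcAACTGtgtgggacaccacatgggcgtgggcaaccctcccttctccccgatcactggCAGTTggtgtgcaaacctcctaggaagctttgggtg
Mpo, chr11:87793634-87793783, plus strand: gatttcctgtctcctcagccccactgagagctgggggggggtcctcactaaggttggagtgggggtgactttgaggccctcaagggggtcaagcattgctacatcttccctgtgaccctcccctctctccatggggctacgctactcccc
Elane and Prtn3, which lie side by side on chromosome 10, each held a match to the PU.1 core, the Myb core and TATAAN in this window. Ctsg held the Myb core alone, and Mpo held none of these letters. TTGCNNAA, a C/EBP core searched on both strands, had no match in the 4 windows. Over 32851 promoters cut to the same length, 14.5% held GAGGAA, 55.1% AACNG, 5.46% TTGCNNAA and 9.97% TATAAN. A match is a description of the letters and not of binding.

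The following values of the rule genes describe the members and support nothing, since these genes chose them. At baseline Elane stood at 1080 and 1610 CPM in the Control members, 2250 and 2560 CPM in Ezh2 KO and 4880 and 4050 CPM in Jarid2 KO. Prtn3 stood at 1610 and 2390 CPM, 2660 and 3410 CPM, and 3960 and 3840 CPM in the same order. Ctsg stood at 2010 and 2260 CPM, 3110 and 3160 CPM, and 3650 and 3320 CPM. In the other cells, B-lineage cells left out, Elane was at 0.516 to 1.32 CPM, Ctsg at 11.5 to 54.4 CPM and Prtn3 at 229 to 376 CPM. Prtn3 had the highest of these values, and the rule itself keeps cells with all 3 genes out of this group. The share of a member's UMIs in these genes had a median of 0.435%, with 10% of members under 0.0806% and 10% over 2.16%.

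The rule cut close to a continuum. The 157 baseline members whose scarcest granule gene had 1 UMI held Mpo at 660 CPM, and the 4164 cells just outside, with 2 of the 3 genes, held it at 242 CPM. The 316 members with at least 2 UMIs of each gene held Mpo at 3390 CPM. At the added limit, the 52 members just inside (0.5 to 0.7%) held Mpo at 2740 CPM and the 54 just outside (0.35 to 0.5%) at 1930 CPM.

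Mpo, the marker of these cells that the rule did not use, had a UMI in 96.6% of the baseline members and in 25.5% of the other cells. It stood at 1820 and 2210 CPM in Control members, 2390 and 2610 CPM in Ezh2 KO and 3960 and 3350 CPM in Jarid2 KO, against 32.3 to 78.3 CPM in the other cells. Other genes of the early granule list were also far above the rest in all 6 libraries, among them Ms4a3, a membrane protein of granulocyte and monocyte progenitors (228 to 570 against 1.28 to 4.14 CPM), Hp, haptoglobin (53.1 to 128 against 0.096 to 0.667 CPM) and Anxa3, an annexin of neutrophils (90.1 to 199 against 1.62 to 4.66 CPM). Ctsc, the cathepsin that activates the granule proteases, was not higher (30 to 40.3 against 37.2 to 41.2 CPM), and nor was Lyz2, lysozyme (101 to 153 against 107 to 146 CPM). The 14 late granule genes summed to 43.9 to 348 CPM in members against 9.9 to 16.3 CPM in other cells, unevenly over the list. S100a8, a calprotectin subunit, reached 106 CPM and S100a9, the other one, 54.4 CPM, while Ltf stood at 0 to 0.611 CPM, Ngp at 0 to 1.16 CPM and Mmp9, gelatinase B, at 0 in all 6 libraries.

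The regulators of the lineage were present. Cebpa, required for granulocyte and monocyte progenitors, stood at 75.2 to 105 CPM in members against 15 to 28.6 CPM in other cells, and Spi1, which encodes PU.1, at 190 to 210 against 95.1 to 126 CPM. Cebpe, the factor of the later granule stage, stood at 24.3 to 113 against 0.212 to 0.369 CPM. Irf8, a factor of monocytes and dendritic cells, stood at 91.3 to 191 against 17.9 to 39.6 CPM. Genes of the secretory pathway that folds granule proteins were also higher, with Calr (calreticulin) at 1140 to 1540 against 351 to 450 CPM and Hspa5 (the chaperone BiP) at 341 to 642 against 179 to 256 CPM.

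Marker sums of most other lineages were lower in members. The 13 stem cell genes summed to 417 to 1010 CPM in members and to 2260 to 2630 CPM in other cells. The megakaryocyte list summed to 64.6 to 131 against 253 to 392 CPM, the erythroid list to 115 to 281 against 763 to 1240 CPM, and the lymphoid priming list to 400 to 589 against 1150 to 1670 CPM. The basophil and mast cell list was higher in members, at 194 to 887 against 20 to 30.7 CPM, and so was the eosinophil list, at 4.62 to 558 against 2.08 to 4.52 CPM. Prg2, the eosinophil major basic protein, was carried by single cells: it stood at 0 and 63 CPM in Control, 366 and 43.9 CPM in Ezh2 KO and 444 and 19.6 CPM in Jarid2 KO. All 241, 564 and 32 of its UMIs in Control library 2 and in the Jarid2 KO libraries lay in 1 cell each, and 480 of 845 in 1 cell of Ezh2 KO library 1. The G1/S genes summed to 1630 to 1770 CPM in members against 1130 to 1240 CPM, and the G2/M genes to 1240 to 1920 against 993 to 1190 CPM.

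Within the baseline members a part of the program followed granule content. The 259 members under 0.5%, the 160 from 0.5 to under 2% and the 54 at 2% and over are taken in this order. Mpo stood at 1080, 3740 and 5920 CPM, Ms4a3 at 62, 510 and 1630 CPM, and Cebpe at 11.6, 104 and 228 CPM. Gfi1, a repressor needed for granulocyte development, stood at 18.6, 37.1 and 105 CPM. The stem cell factors ran the other way, with Hlf at 169, 63.5 and 23.7 CPM and Meis1 at 356, 121 and 30.9 CPM. Not all genes of the early granule and myeloid regulator lists rose. Lyz2 stood at 137, 136 and 79 CPM, Ctsc at 37, 38.9 and 34.5 CPM, and the regulator Runx1 at 844, 630 and 309 CPM. The monocyte gene F13a1 (coagulation factor XIII A chain) peaked in the middle class, at 81.8, 183 and 86.2 CPM, as did Irf8 at 113, 156 and 73.3 CPM and the mast cell and basophil protease genes Cpa3, at 170, 182 and 15.8 CPM, and Mcpt8, at 38.1, 125 and 16.5 CPM. Fcnb (ficolin B, a lectin of granules) and S100a8 were held by the top class, at 0.323, 0.222 and 44.5 CPM and at 10.2, 2.44 and 394 CPM. These classes were cut from the rule genes, so the order is a description. Each class pools the cells of all 6 libraries and genotypes, whose granule content differed. Control library 1 gave no cell to the top class, as its highest content was 1.66%. The Control members held 2 and 14 UMIs of S100a8 and 0 and 1 of Fcnb. Of the Mcpt8 UMIs in members at 0.5% and over, 393 lay in Ezh2 KO library 1, against 7 to 91 in each other library. The part of genotype in the order was not tested.

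The rule did not use the surface antibodies. Members were deeper than the other cells, and the part of depth in the antibody UMIs per cell was not tested. CD48, which stem cells lack, stood at 3300 and 2290 antibody UMIs per member of the Control libraries, 3070 and 3150 of the Ezh2 KO and 2290 and 2310 of the Jarid2 KO libraries, against 708 to 1530 per other cell. The log2 ratio of members to other cells was 1.39 ± 0.258 (SD, n = 6 libraries), higher in 6 of 6 (exact sign-flip permutation test, two-sided, p = 0.0312, the smallest that 6 libraries allow, and 0.0625 adjusted over 6 antibodies). Sca1 stood at 241 to 437 antibody UMIs per member and 470 to 582 per other cell, a log2 ratio of -0.735 ± 0.249 (SD, n = 6), lower in 6 of 6 (exact p = 0.0312, adjusted 0.0625). CD117 (c-Kit) stood at 344 to 436 against 234 to 324, a log2 ratio of 0.548 ± 0.174 (SD, n = 6), higher in 6 of 6 with the same exact p. On this scale CD150, CD201 and CD135 had no common direction over the 6 libraries, with log2 ratios of -0.0571 ± 0.72, 0.101 ± 0.539 and 0.0689 ± 0.375 (SD, n = 6). The CD150 ratio was negative in Control (-0.809 and -0.571) and Ezh2 KO (-0.387 and -0.0992) and positive in Jarid2 KO (0.366 and 1.16). Yet 37.3 and 47.6% of the Jarid2 KO members lay above the CD150 median of their library. The difference between genotypes was not tested.

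Members held more antibody UMIs in all, and the scale mattered. As a share of the antibody UMIs of a cell, CD48 was still higher (log2 ratio 0.559, exact adjusted p = 0.0469 over 6 antibodies) and Sca1 lower (-1.56, exact adjusted p = 0.0469), and both held in 6 of 6 libraries. CD117 turned on this scale, to -0.28, lower in 6 of 6 with the same exact adjusted p of 0.0469. CD135 was lower in 6 of 6 as well (-0.759, exact adjusted p = 0.0469), and CD150 (-0.885) and CD201 (-0.727) in 5 of 6 (exact adjusted p = 0.0625). The shares of a cell sum to the whole, and CD48 held the most antibody UMIs in members. A higher CD48 share therefore lowers all the others. The lower shares of CD117, CD135, CD150 and CD201 are not results apart from that of CD48. Against the median of its own library, CD48 was high in 83.8 to 100% of the members and Sca1 in 16.7 to 27.2%. Cells above the CD150 median and at or below the CD48 median, the surface position of stem cells, made up 0 to 3.17% of members and 27.6 to 32.7% of other cells. The members thus lay at the CD48 high, Sca1 low side of the gate.

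**Figure D2:**
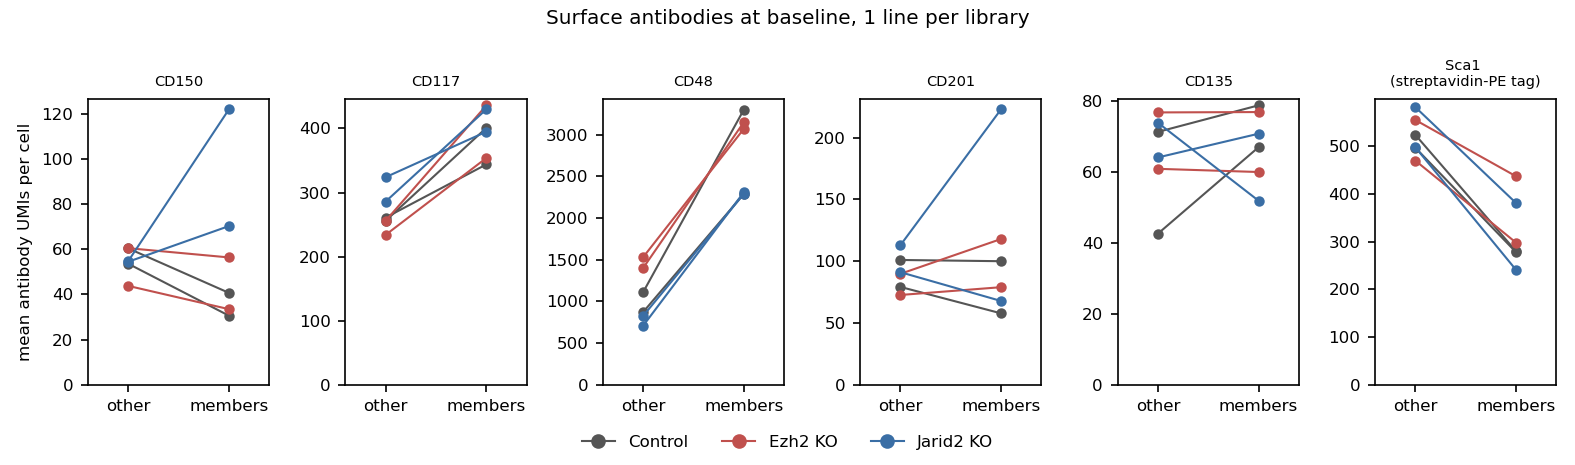
Mean antibody UMIs per cell (vertical axes from 0) for other cells and members at baseline, 1 panel per antibody and 1 line per library coloured by genotype. All 6 lines rise for CD48 (to 2290 to 3300) and CD117 and all 6 fall for Sca1, while CD150, CD201 and CD135 go both ways.

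The first question across genotypes was whether loss of Jarid2 or Ezh2 changed how many such cells the gate held. At baseline the member share was 0.419% (exact binomial 95% interval 0.283 to 0.597) and 2.06% (1.77 to 2.38) in the Control libraries. It was 0.78% and 0.807% for Ezh2 KO, and 0.655% and 0.836% for Jarid2 KO. The knockout libraries lay between the 2 Control libraries, and the means did not differ beyond the spread (exact permutation test, two-sided, p = 1 for each pair, n = 2 against 2, where the smallest possible p is 0.333). With each cell thinned to 3000 UMIs the Control shares were 0.17 and 0.874%, those of Ezh2 KO 0.374 and 0.436% and those of Jarid2 KO 0.47 and 0.632%. The intervals cover counting error only.

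The granule-high share of the members is cut from the 3 genes of the rule, so it is given as a description. Granule-high cells were 8 of 30 and 66 of 174 Control members (26.7 and 37.9%), 29 of 74 and 40 of 81 Ezh2 KO members (39.2 and 49.4%), and 33 of 51 and 38 of 63 Jarid2 KO members (64.7 and 60.3%). The Jarid2 KO libraries lay above all others and the Ezh2 KO libraries above both Control libraries. Between 19 and 24.1% of the members of a library lay near the limit, from 0.35 to 0.7%. As a share of all kept cells, granule-high members were 0.112 and 0.781% for Control, 0.306 and 0.398% for Ezh2 KO and 0.424 and 0.505% for Jarid2 KO.

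**Figure D3:**
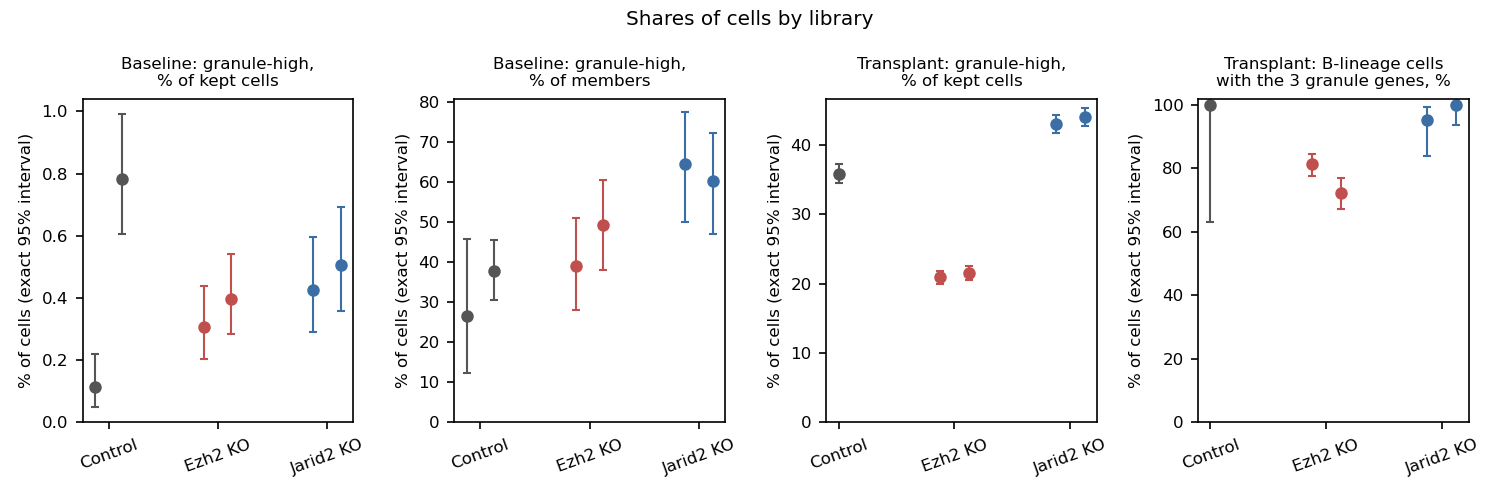
Shares of cells by library (% with exact binomial 95% intervals, axes from 0): granule-high members of kept cells and of members at baseline, granule-high members of kept cells after transplantation, and B-lineage cells with the 3 granule genes after transplantation. Points are libraries grouped by genotype, and the last panel shows shares of 72.2 to 100%.

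The targeted genes were read first. Ezh2 stood at 269 and 235 CPM in baseline Control members, 221 and 201 CPM in Jarid2 KO and 128 and 162 CPM in Ezh2 KO, and it fell in Ezh2 KO by 0.73 on the log2 scale (SE 0.133, edgeR adjusted p = 0.00823). After transplantation it stood at 184 CPM in Control members, 170 and 184 CPM in Jarid2 KO and 36.5 and 44.2 CPM in Ezh2 KO. Jarid2 stood at 136 and 116 CPM in Control, 105 and 118 CPM in Ezh2 KO and 198 and 169 CPM in the libraries labelled Jarid2 KO, where it rose by 0.65 (SE 0.136, edgeR adjusted p = 0.0104). After transplantation Jarid2 stood at 38.6 CPM in Control, 41 and 45.8 CPM in Ezh2 KO and 56.9 and 56.8 CPM in the libraries labelled Jarid2 KO. Counts near the 3′ end of a transcript say nothing of a deletion outside the counted part, so these values do not check the Jarid2 label.

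In baseline members, edgeR called 256 of 10273 tested genes between Jarid2 KO and Control (2.49%, false discovery rate 0.05, rule genes left out), 159 higher (1.55%) and 97 lower (0.944%). It called 80 between Ezh2 KO and Control (0.779%), 63 higher (0.613%) and 17 lower (0.165%), and 95 between Jarid2 KO and Ezh2 KO (0.925%), 38 higher (0.37%) and 57 lower (0.555%). Within granule-high members it called 90 (1.02%; 0.589% higher, 0.43% lower), 93 (1.05%; 0.849% higher, 0.204% lower) and 69 (0.781%; 0.17% higher, 0.611% lower) of 8833 genes. DESeq2 called 98, 9 and 17 in members, and without Control library 2, which held 174 of the 204 Control members, edgeR called 619 and 351 against Control. Of the Ezh2 KO calls named in the following, DESeq2 kept those of Ezh2 and Manf and lost those of Ms4a3, Nkg7, Anxa3, Ly6c2, Hspa5 and Sdf2l1. Of the Jarid2 KO calls against Control it lost those of Jarid2, Cebpe and Hspa5. Between the knockouts it kept those of Pbx3, Clec12a, F13a1, Ms4a6c and Cpa3, and lost those of Mpo, Irf8, Ly86, Ly6c2, Bmi1, Mcpt8, Prss34 and Ube2c. DESeq2 gave no adjusted p for S100a8, S100a9, Wfdc21 and Fcnb against Control. The Control group is shared by the first 2 comparisons, so their results are not independent of each other.

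Most genes of the early granule list, which holds more than primary granule proteins, rose in the Jarid2 KO members. Of 15 early granule genes, 13 rose and 0 fell, with a median log2 fold change of 0.76 against -0.00317 over all tested genes. Of all tested genes, 1.55% were called higher. Fcnb, 1 of the 13, failed the filter on low counts in the Control libraries alone and entered through the knockout libraries. Mpo, with the per-library values above, rose by 0.95 (SE 0.114, edgeR adjusted p = 8.91e-05). Ms4a3 stood at 228 and 321 CPM in Control, 402 and 493 CPM in Ezh2 KO and 570 and 488 CPM in Jarid2 KO, and rose by 1.02 in Jarid2 KO (SE 0.143, adjusted p = 0.000302). Clec12a, an inhibitory lectin receptor of myeloid cells, stood at 114 and 126 CPM, 162 and 180 CPM, and 304 and 263 CPM, and rose by 1.30 (SE 0.135, adjusted p = 1.43e-05). For these 3 genes both Jarid2 KO libraries lay above both Control libraries, and the calls were kept whichever library was left out. The granule-high share of members moved in the same order as these genes, and its part in the result was not tested.

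In Ezh2 KO, 4 of the 15 rose against Control and 0 fell (median 0.40), beside 0.613% of all tested genes called higher. These were Ms4a3 by 0.73, Anxa3 by 0.75, Nkg7, a granule membrane protein, by 0.55, and Fcnb, which entered as said. Each of these 4 calls was lost without Ezh2 KO library 2. Mpo was at 2390 and 2610 CPM there, above both Control values, and did not pass the test. Between the knockouts, Mpo (0.60) and Clec12a (0.77) were higher in Jarid2 KO. Both of these calls were lost without Ezh2 KO library 1 and without Jarid2 KO library 1.

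Granule content differed between genotypes among the granule-high members too: the 3 rule genes summed to 10800 and 11400 CPM in Control, 15400 and 16200 CPM in Ezh2 KO and 17100 and 16200 CPM in Jarid2 KO. Its part in the following values was not tested. Among these cells 4 of 15 early granule genes rose in Jarid2 KO (median 0.46) and 7 of 15 in Ezh2 KO (median 0.40), and 0 fell. Of all tested genes, 0.589 and 0.849% were called higher in the same order. Fcnb, called in Jarid2 KO by 4.59, held 0 and 1 UMI in these cells of Control. It failed the filter on low counts in Control alone and entered through the knockout libraries. Mpo stood at 3470 and 3840 CPM in Control, 4080 and 4270 CPM in Ezh2 KO and 5070 and 4600 CPM in Jarid2 KO, and rose by 0.47 in Jarid2 KO (SE 0.0741, edgeR adjusted p = 0.000535, lost without Ezh2 KO library 2). Clec12a rose there by 0.76, lost without any of 3 libraries. In Ezh2 KO, Anxa3 rose by 0.74, Nkg7 by 0.62 and Ms4a3 by 0.51, each lost without either Ezh2 KO library, and Ms4a3 and Anxa3 also without Control library 2. Control library 1 gave only 8 of these cells.

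S100a8 and Wfdc21, genes of later granulocytes, were called higher in both knockouts, in few cells. Of the 14 genes of the late granule list 7 passed the filter on low counts, and 5 of them were called higher in each knockout. S100a8, S100a9 and Wfdc21 had 0 to 14 UMIs per Control library and failed the filter in the Control libraries alone, so they entered through the knockout libraries. The count is therefore set in part by the filter and supports nothing, and the calls of these 3 genes and of Fcnb are given with this limit. S100a8 stood at 2.31 and 3.66 CPM in Control, 102 and 55.4 CPM in Ezh2 KO and 59.9 and 106 CPM in Jarid2 KO. It rose by 4.67 in Jarid2 KO (SE 0.415, edgeR adjusted p = 2.47e-06) and by 4.51 in Ezh2 KO (SE 0.413, adjusted p = 8.85e-06), and both calls were kept whichever library was left out. The UMIs were 2 and 14 in the Control libraries, 235 and 121 in those of Ezh2 KO and 76 and 174 in those of Jarid2 KO. They came from 2 and 8, 10 and 13, and 10 and 10 cells, and in 1 cell of Jarid2 KO library 2 there were 98 of the 174.

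S100a9 rested on fewer cells still. It stood at 0 and 2.88 CPM in Control, 43.7 and 5.95 CPM in Ezh2 KO and 36.2 and 54.4 CPM in Jarid2 KO, with 40 of 46 and 87 of 89 UMIs of the Jarid2 KO libraries in 1 cell each. Its call in Ezh2 KO (3.16, edgeR adjusted p = 0.0435) was lost without Ezh2 KO library 1.

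Wfdc21 stood at 1.16 and 1.83 CPM in Control, 17.3 and 19.7 CPM in Ezh2 KO and 26.8 and 16.5 CPM in Jarid2 KO. It rose by 3.62 in Jarid2 KO (SE 0.468, edgeR adjusted p = 0.000135) and by 3.38 in Ezh2 KO (SE 0.456, adjusted p = 0.000608). Fcnb had 0 and 1 UMI in the Control libraries, 15 and 23 in those of Ezh2 KO and 12 and 14 in those of Jarid2 KO, and passed the test in both knockouts (edgeR adjusted p = 0.00339 in Ezh2 KO and 0.00145 in Jarid2 KO). Cebpe stood at 24.3 and 49.2 CPM in Control, 101 and 68.2 CPM in Ezh2 KO and 64.6 and 113 CPM in Jarid2 KO, and rose by 1.10 and 1.21. Its calls were lost without Ezh2 KO library 1 and Jarid2 KO library 2 respectively. For Wfdc21, Fcnb and Cebpe the knockout and Control libraries did not overlap. In granule-high members S100a8 and Wfdc21 rose in both knockouts too, by 4.91 and 2.88 in Jarid2 KO and by 5.25 and 3.18 in Ezh2 KO. The Wfdc21 calls there were lost without Control library 2 and Ezh2 KO library 2 respectively.

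**Figure D4:**
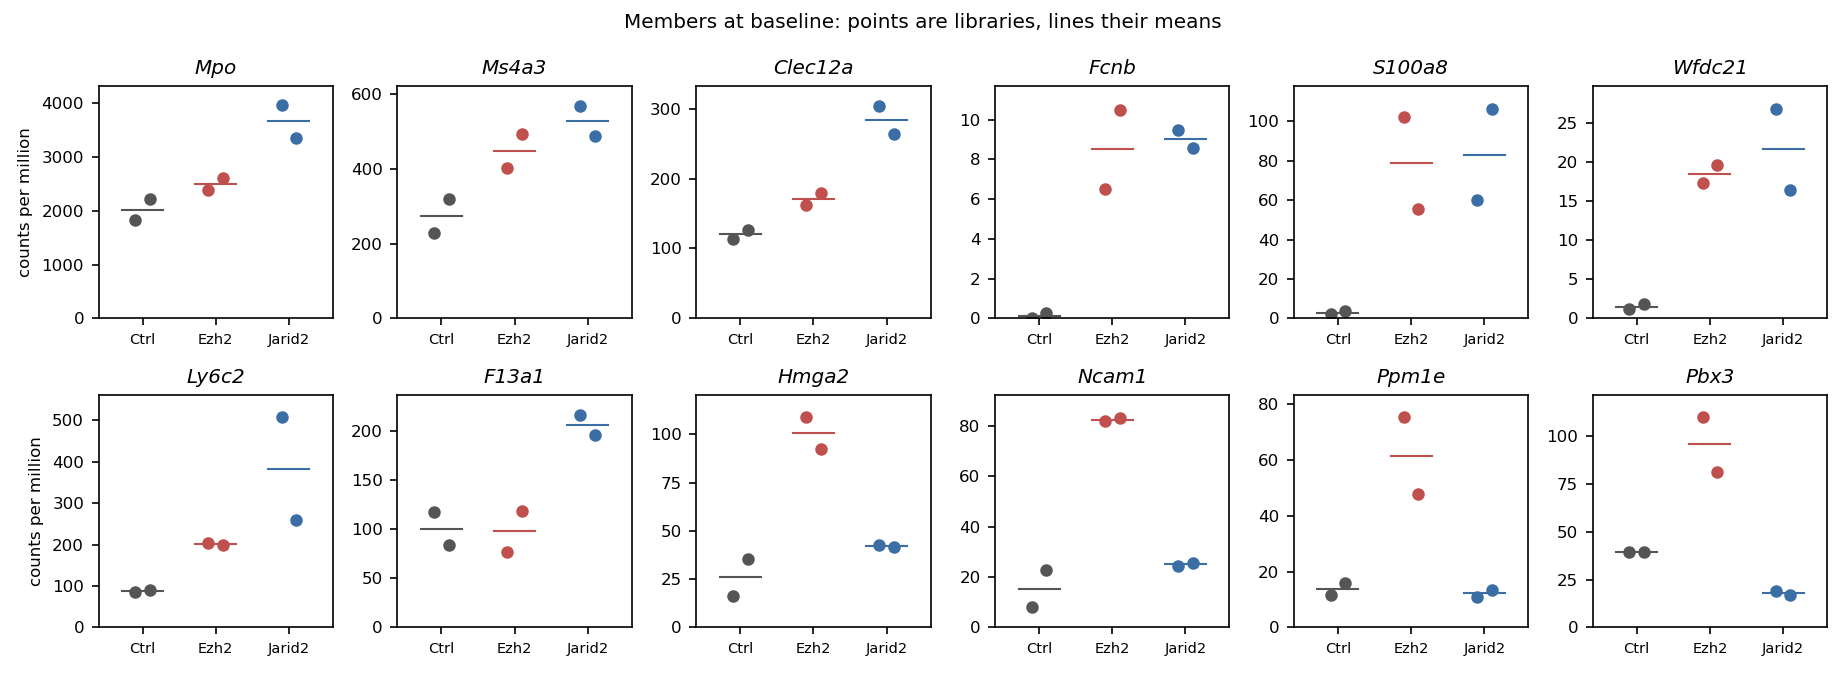
CPM of 12 genes in members at baseline, with 1 point per library, a line at the mean of the 2 libraries of a genotype, and axes from 0 (Ctrl, Control; Ezh2 and Jarid2, the knockouts). Mpo, Ms4a3 and Clec12a have their highest mean in Jarid2 KO, with overlap between the knockout libraries for Ms4a3. Fcnb, S100a8 and Wfdc21 are near 0 in Control, and Hmga2, Ncam1, Ppm1e and Pbx3 are highest in Ezh2 KO.

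Of 10 tested monocyte genes, 5 rose in Jarid2 KO against Control (median 0.94) and 1, Ly6c2, in Ezh2 KO (median 0.0052). Over all tested genes, 1.55 and 0.613% were called higher in the same order. The knockouts were also compared directly, and the same 5 genes were higher in Jarid2 KO than in Ezh2 KO (median 0.88). There 0.37% of all tested genes were called higher. Ly6c2, whose product marks classical monocytes, stood at 86.6 and 90 CPM in Control, 204 and 200 CPM in Ezh2 KO and 508 and 258 CPM in Jarid2 KO, rising by 2.08 in Jarid2 KO (SE 0.188, edgeR adjusted p = 2.47e-06) and by 1.17 in Ezh2 KO (SE 0.188, adjusted p = 0.00332). F13a1 stood at 117 and 84 CPM, 77.1 and 118 CPM, and 216 and 196 CPM, rising by 1.21 in Jarid2 KO (SE 0.174, adjusted p = 4e-04). Irf8 stood at 94.7 and 116 CPM, 91.3 and 120 CPM, and 191 and 157 CPM, rising by 0.77 (SE 0.157, adjusted p = 0.00792, lost without Jarid2 KO library 1).

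Ly6c2, unlike F13a1 and Irf8, rose over the 3 classes of granule content, from 31 to 241 and 802 CPM, and the granule-high share differed between genotypes; its part was not tested. Among granule-high members the monocyte list summed to 497 and 834 CPM in Control, 972 and 865 CPM in Ezh2 KO and 1700 and 979 CPM in Jarid2 KO. Of 9 tested genes 2 rose there in Jarid2 KO against Control, Ly6c2 by 1.33 and F13a1 by 1.02, and 1 in Ezh2 KO, Ly6c2 by 1.02. Over all genes tested in granule-high members, 0.589 and 0.849% were called higher.

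Ms4a6c (0.90) and Ly86 (0.99) were the other 2 called, and both were also higher than in Ezh2 KO. For F13a1, Irf8 and Ms4a6c both Jarid2 KO libraries lay above every other library. Of the calls between the knockouts, those of Ly6c2, Irf8 and Ly86 were lost without Ezh2 KO library 1 or Jarid2 KO library 1, and those of F13a1 and Ms4a6c without Ezh2 KO library 1. Ctsh, a lysosomal cathepsin, stood at 3.47 and 8.63 CPM in Control, 20.3 and 15.1 CPM in Ezh2 KO and 37.8 and 33 CPM in Jarid2 KO, and Clec4a2, an inhibitory lectin receptor, at 2.31 and 2.35 CPM, 7.79 and 5.04 CPM, and 23.6 and 20.2 CPM. Both were called higher in Jarid2 KO than in Control, by 2.27 and 3.17, and both failed the filter on low counts in the Control libraries alone.

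Some chaperones of the secretory pathway rose as well. Of 13 genes of granule protein synthesis, 6 rose in Jarid2 KO (median 0.55) and 3 in Ezh2 KO (median 0.38), and 0 fell. Of all tested genes, 1.55 and 0.613% were called higher in the same order. Hspa5 stood at 341 and 513 CPM in Control, 632 and 642 CPM in Ezh2 KO and 608 and 610 CPM in Jarid2 KO, rising by 0.62 and 0.59. Manf, an endoplasmic reticulum stress protein, rose by 0.62 and 0.66, and Sdf2l1, another resident of this compartment, by 0.66 and 0.71. The Hspa5 calls were lost without Control library 1, its lowest library, or without the first library of the knockout. The calls of Manf and Sdf2l1 were lost without library 1 of their knockout.

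Of 10 tested stem cell genes, 2 fell in Jarid2 KO members and 8 did not pass, beside 0.944% of all tested genes called lower, and the median over the list was -0.70. Hlf stood at 158 and 142 CPM in Control, 83.5 and 116 CPM in Ezh2 KO and 74 and 90.5 CPM in Jarid2 KO, and fell by 0.73 (SE 0.154, edgeR adjusted p = 0.0101). Meis1 stood at 352 and 284 CPM, 179 and 234 CPM, and 139 and 184 CPM, and fell by 0.86 (SE 0.149, adjusted p = 0.00227). Both calls were lost without Jarid2 KO library 1. In Ezh2 KO 0 of 10 passed. Among granule-high members 0 of 6 tested stem cell genes passed in either knockout, and the larger granule-high share of the Jarid2 KO members stands beside the fall; its part was not tested.

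Some genes called in the Ezh2 KO members were on none of the granule lists. Hmga2, a chromatin protein of fetal stem cells, stood at 16.2 and 35.6 CPM in Control, 109 and 92.5 CPM in Ezh2 KO and 42.5 and 41.6 CPM in Jarid2 KO, and rose by 1.76 (SE 0.206, edgeR adjusted p = 0.000156). Ncam1, a neural adhesion molecule, stood at 8.09 and 22.8 CPM, 81.8 and 83.3 CPM, and 24.4 and 25.7 CPM, and rose by 2.19 (SE 0.216, adjusted p = 1.63e-05). Ppm1e, a protein phosphatase, stood at 11.6 and 16 CPM, 75.3 and 47.6 CPM, and 11 and 13.4 CPM, and rose by 1.98 (SE 0.24, adjusted p = 0.000205). In each of these 3 genes the Ezh2 KO libraries lay above all others.

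Bex4 rose by 2.24 and Sgms2, a sphingomyelin synthase, by 1.80 in Ezh2 KO, and these 5 Ezh2 KO calls were kept whichever library was left out. DESeq2 gave none of the 5 an adjusted p in this contrast, so it neither kept nor lost them. The Ezh2 KO libraries held 55 and 59 Bex4 UMIs, those of Control 1 and 28 and those of Jarid2 KO 4 and 6, and Bex4 passed the filter on low counts through the Ezh2 KO libraries alone. The rise of Sgms2 was found in both knockouts: it stood at 4.62 and 15.4 CPM in Control, 42.9 and 43 CPM in Ezh2 KO and 37.8 and 36.1 CPM in Jarid2 KO, where it rose by 1.61 (SE 0.285, edgeR adjusted p = 0.00253). Against Ezh2 KO, the Jarid2 KO members held less Pbx3, a homeodomain partner of Hox proteins (110 and 81.5 against 18.9 and 17.1 CPM, -2.35, SE 0.199, edgeR adjusted p = 2.35e-06), and less Bmi1, a Polycomb repressive complex 1 subunit (34.2 and 38 against 8.66 and 10.4 CPM, -1.86). Control members held Pbx3 at 39.3 and 39.5 CPM and Bmi1 at 19.6 and 14.4 CPM, between the knockouts.

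Of 7 tested basophil and mast cell genes, 3 were lower in Jarid2 KO than in Ezh2 KO, beside 0.555% of all tested genes. Cpa3 stood at 183 and 91.3 CPM in Control, 326 and 134 CPM in Ezh2 KO and 161 and 83.8 CPM in Jarid2 KO, a difference of -0.83. Mcpt8 stood at 39.3 and 35.3 CPM, 204 and 32.5 CPM, and 63.8 and 16.5 CPM, a difference of -1.44. Prss34, another protease of basophils, stood at 170 CPM in Ezh2 KO library 1 and at 0 to 18.6 CPM in the other 5 libraries. In that library 226 of the 393 Prss34 UMIs and 170 of the 472 Mcpt8 UMIs lay in 1 cell each. The male library was the higher for Cpa3 and Mcpt8 in all 3 genotypes, and all 3 calls were lost without Ezh2 KO library 1 or Jarid2 KO library 1.

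G1/S genes did not pass the test in any contrast of members or granule-high members at baseline (0 of 14 each). Of 14 G2/M genes, 1 passed in members, Ube2c, a ubiquitin-conjugating enzyme of mitosis, lower in Jarid2 KO than in Ezh2 KO by -0.76 and lost without any of 3 libraries. In granule-high members 2 were lower in Jarid2 KO than in Ezh2 KO, Ube2c by -1.18 and Cenpf, a kinetochore protein, by -0.98. Of all genes tested there, 0.611% were called lower, and 0.555% in members. A test of the difference between the genotype effect in members and in the other cells of the same libraries called 493 of 17076 genes for Jarid2 KO against Control (2.89%), 125 for Ezh2 KO against Control (0.732%) and 202 between the knockouts (1.18%). The effect on S100a8 was larger in members by 4.34 in Jarid2 KO and by 3.27 in Ezh2 KO, and S100a8 stood at 1.14 to 3.13 CPM in the other cells of all 6 libraries. This rests on 2 and 14 S100a8 UMIs in the Control members, and 98 of the 174 in Jarid2 KO library 2 lay in 1 cell. The effect on F13a1 was larger by 2.90 in Jarid2 KO against Control (SE 0.264, edgeR adjusted p = 8.15e-25) and by 2.93 against Ezh2 KO, but the rise in members was 1.21 against Control. The rest lay in the other cells, where F13a1 stood at 0.636 and 1.79 CPM in Control, 0.841 and 1.85 CPM in Ezh2 KO and 0.328 and 0.388 CPM in Jarid2 KO. These calls were kept whichever library was left out. The fit has few libraries for its many terms and leans on a spread that edgeR shares over genes. The size of its p-values therefore does not measure the spread of F13a1 alone. Hmga2 was raised in other cells of Ezh2 KO too (124 and 124 against 39.9 and 45.5 CPM in Control), as was Ppm1e (44.8 and 38.3 against 14.2 and 14.8 CPM).

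After transplantation the member share was 98% for Control, 80.3 and 76.7% for Ezh2 KO and 97.9 and 98.2% for Jarid2 KO, and it followed the share of B-lineage cells with the 3 genes (100% of 8, 81.2% of 500, 72.2% of 353, 95.2% of 42 and 100% of 57 cells in the same order). In the other cells, B-lineage cells left out, Elane stood at 24.7 to 215 CPM and Mpo at 585 to 762 CPM, against at most 1.32 and 78.3 CPM at baseline. In the B-lineage cells Elane stood at 264 to 1860 CPM and Mpo at 695 to 1420 CPM, against at most 6.71 and 27 CPM at baseline. A share that the B-lineage cells match does not tell which cells express the genes. The part of RNA free in the suspension in these shares was not tested.

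The granule-high share after transplantation, also cut from the rule genes, was 35.9% of kept cells (exact interval 34.6 to 37.3) for Control, 20.9 and 21.5% for Ezh2 KO and 43 and 44.1% for Jarid2 KO. Of the B-lineage cells, 1 of 8, 24 of 500 and 26 of 353, and 10 of 42 and 13 of 57 passed the same limit (12.5%, 4.8 and 7.37%, 23.8 and 22.8%), and of the erythroid cells 2.94 to 5.88%. The 8 B-lineage cells of the Control library allow any share from 0.316 to 52.7%. The B-lineage values had the same order of genotypes as the share, and their part in that order was not tested. Among cells with Y-linked transcripts and no Xist the shares were 29.5%, 19.3 and 21.2%, and 39.1 and 39.8%, in the same order. With B-lineage cells left out of the denominator, they were 36%, 22.6 and 22.8%, and 43.3 and 44.6%. Under the strict filter, defined with the processing below, the share was 26.3% for Control. The means were then 20.3% for Ezh2 KO and 37.5% for Jarid2 KO, in the same order of genotypes. The difference of Ezh2 KO from Control shrank from -14.7 to -6.0 points, and that of Jarid2 KO grew from 7.65 to 11.2 points.

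The granule-high members after transplantation resembled those at baseline in their leading genes. Mpo stood at 5410 CPM in Control, 5580 and 5770 CPM in Ezh2 KO and 6230 and 6650 CPM in Jarid2 KO, and Ms4a3 at 1120, 907 and 929, and 1050 and 1310 CPM. The stem cell list summed to 131 to 170 CPM in them against 539 to 730 CPM in all remaining cells without B-lineage cells, and the early granule list to 15700 to 19000 against 5240 to 5700 CPM. From the 6503 members at 0.5 to under 2% to the 2651 at 2% and over, Mpo stood at 4900 and 7930 CPM, Cebpe at 123 and 255 CPM and F13a1 at 106 and 34.7 CPM.

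Against the single Control library, the granule program did not pass the test in either knockout. In granule-high members edgeR called 10 of 13626 genes for Jarid2 KO against Control (0.0734%), 6 higher (0.044%) and 4 lower (0.0294%). It called 178 for Ezh2 KO against Control (1.31%), 127 higher (0.932%) and 51 lower (0.374%), and 819 between the knockouts (6.01%), 285 higher in Jarid2 KO (2.09%) and 534 lower (3.92%). Of 15 early granule genes, 12 monocyte genes, 15 myeloid regulators and 13 genes of granule protein synthesis, 0 passed against Control in either knockout. Their medians lay between -0.10 and 0.23. A p-value that misses the threshold does not show that the genotypes were alike, and the lone Control library was assumed to vary like the knockout libraries.

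Between the knockouts, with 2 libraries each, some granule and monocyte genes did differ. Fcnb stood at 2.17 and 2.11 CPM in Ezh2 KO and 6.87 and 5.77 CPM in Jarid2 KO (1.56, SE 0.2, edgeR adjusted p = 0.00472), with 3.55 CPM in Control. Clec12a stood at 268 and 272 against 481 and 482 CPM (0.83, SE 0.138, adjusted p = 0.0137), with 340 CPM in Control. Wfdc21 stood at 12.8 and 6.17 against 44.3 and 23.6 CPM (1.83, SE 0.413, adjusted p = 0.0449), with 37.9 CPM in Control. Control lay between the knockouts for Fcnb and Clec12a, and between the 2 Jarid2 KO libraries for Wfdc21. In male cells alone Fcnb (1.84, edgeR adjusted p = 0.0444) and Clec12a (0.78, adjusted p = 0.0369) passed and Wfdc21 did not (1.94, adjusted p = 0.0807). The Clec12a call was lost without either Ezh2 KO library and the Wfdc21 call without Ezh2 KO library 2 or Jarid2 KO library 1.

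Ly6c2 was higher in Jarid2 KO by 0.57, lost without any of 3 libraries and kept in male cells (0.63, edgeR adjusted p = 0.0471). Of 8 basophil and mast cell genes, 5 were lower in Jarid2 KO than in Ezh2 KO, beside 3.92% of all tested genes. Among them Cpa3 stood at 273 and 267 against 142 and 149 CPM (-0.89), Mcpt8 at 95.2 and 91.9 against 54.8 and 59.5 CPM (-0.71, lost, as the call of Cpa3, without Ezh2 KO library 1) and Fcer1a, the IgE receptor alpha chain, at 5.77 and 4.56 against 0.208 and 0.796 CPM (-3.36). In Control they stood at 147, 69.2 and 3.21 CPM. Prg2 ran the other way, at 15.5 and 8.51 CPM in Ezh2 KO against 84.5 and 239 CPM in Jarid2 KO and 102 CPM in Control. Single cells carried this gene at baseline, and its UMIs per cell were not examined after transplantation. In male cells the calls of Cpa3 (-0.92, edgeR adjusted p = 0.0117), Fcer1a (-2.98, adjusted p = 0.0318) and Prg2 (3.49, adjusted p = 0.00336) were kept and that of Mcpt8 was lost (-0.59, adjusted p = 0.0541).

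Among the genes called in Ezh2 KO were again some on none of the granule lists. Ezh2 itself stood at 167 CPM in Control, 30.7 and 38.7 CPM in Ezh2 KO and 153 and 171 CPM in Jarid2 KO, a fall of -2.34 (SE 0.147, edgeR adjusted p = 0.000792). Hmga2 stood at 1.89 CPM in Control, 23.2 and 27.3 CPM in Ezh2 KO and 5.92 and 6.67 CPM in Jarid2 KO, rising by 3.66 in Ezh2 KO (SE 0.179, adjusted p = 0.000486) and by 1.66 in Jarid2 KO (SE 0.181, adjusted p = 0.0371). Bex4 stood at 0.966, 37.3 and 32, and 0.231 and 0.387 CPM (5.10 in Ezh2 KO, SE 0.263, adjusted p = 0.000493). Bex1 stood at 4.17, 37 and 38, and 1.39 and 2.07 CPM (3.1, SE 0.187, adjusted p = 0.000792).

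Ncam1 stood at 11.7 CPM in Control, 67.6 and 62.6 CPM in Ezh2 KO and 7.08 and 7.36 CPM in Jarid2 KO (2.40, SE 0.152, adjusted p = 0.000792 by edgeR). Pbx3 stood at 5.25, 25.8 and 26.4, and 2.92 and 2.9 CPM, lower in Jarid2 KO than in Ezh2 KO by -3.17 (SE 0.119, adjusted p = 2.82e-05). Both Ezh2 KO libraries lay above every other library in these genes. In male cells alone the Ezh2 KO changes of Bex4 (4.82), Hmga2 (4.33), Bex1 (3.24), Ncam1 (2.30) and Ezh2 (-2.25) passed too (edgeR adjusted p = 0.00728 each), among 18 genes called there (0.144%), with 411 called between the knockouts (3.29%). The Hmga2 rise in Jarid2 KO did not pass in male cells (1.92, adjusted p = 0.927), where edgeR called 0 genes (0%) and 637 had an unadjusted p under 0.05.

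**Figure D5:**
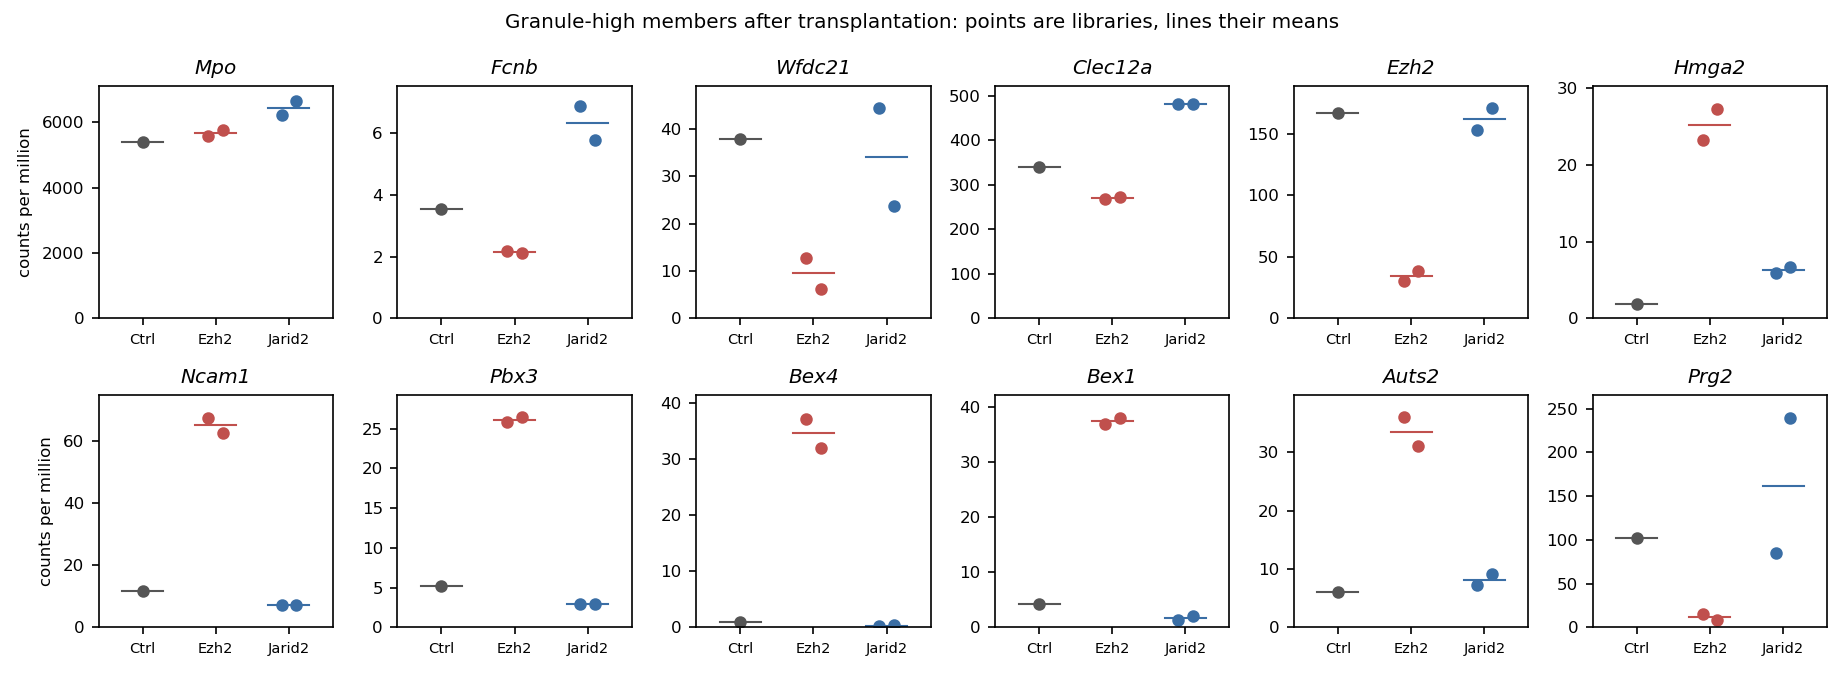
CPM of 12 genes in granule-high members after transplantation, with 1 point per library (1 Control, 2 Ezh2 KO, 2 Jarid2 KO), a line at the mean of a genotype, and axes from 0. Clec12a and Fcnb are lower in Ezh2 KO than in Jarid2 KO, while Hmga2, Ncam1, Pbx3, Bex4, Bex1 and Auts2 are highest in both Ezh2 KO libraries.

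In all members after transplantation, nearly the whole of each library, edgeR called 60 of 15756 genes for Jarid2 KO against Control (0.381%), 33 higher (0.209%) and 27 lower (0.171%). It called 552 for Ezh2 KO against Control (3.5%), 353 higher (2.24%) and 199 lower (1.26%), and 1531 between the knockouts (9.72%), 585 higher in Jarid2 KO (3.71%) and 946 lower (6%). Hmga2 (1.30) and Mycn (1.48) rose in Jarid2 KO and Pbx3 (-1.26) and Bex4 (-1.80) fell, of which Hmga2, Mycn and Pbx3 were lost in male cells (edgeR adjusted p = 0.0973, 0.0647 and 0.0647). Of the early granule, late granule, monocyte and synthesis lists 0 genes passed against Control in either knockout. Between the knockouts 5 of 15 early granule, 3 of 12 late granule and 4 of 12 monocyte genes and 1 of 13 genes of the synthesis list were higher in Jarid2 KO, and 1 monocyte gene was lower. Of 12 lymphoid priming genes, none of them used by the rule, 8 were higher in Ezh2 KO than in Control, and their part in the other results was not tested. Too few cells lay outside the members in the Control and Jarid2 KO libraries to describe genes from the comparison with the other cells here.

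A test of whether a genotype effect differed between the experiments called 1, 13 and 1 of 12336 genes in members (0.00811, 0.105 and 0.00811%) for Jarid2 KO and Ezh2 KO, each against Control, and for Jarid2 KO against Ezh2 KO. In granule-high members it called 0, 5 and 1 of 10631 (0, 0.047 and 0.00941%), with edgeR at the same threshold. Mpo, Ms4a3 and Clec12a were not among them. The fall of Ezh2 in Ezh2 KO was deeper after transplantation (-2.34 against -0.80 in granule-high members), a difference of -1.53 (SE 0.234, adjusted p = 0.0213). In granule-high male members 0 genes were called against Control, so this call was lost there. The fall of Ezh2 after transplantation itself passed in these male cells, as given above. The counting software also differed, with Cell Ranger 7.2.0 at baseline and 6.1.2 after transplantation, and its part was not tested.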

How the data were processed

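Droplet single-cell RNA was read from 11 matrices of raw UMI counts that the authors deposited, with 32285 genes and 6 antibodies each. The antibodies held 225 to 366 UMIs in a transplant matrix and were used at baseline only. Per the file headers, Cell Ranger 7.2.0 (baseline) and 6.1.2 (transplant) counted the reads, while the submitters' processing notes name Cell Ranger 3.1.0, Seurat 3.0, Partek and mm10. Histone CUT&Tag data of the series were not used here. Any 2 libraries shared 5 to 34 kept barcodes. Kept cells met the filters given above, and a strict filter (2000 UMIs, 1000 genes, 5% mitochondrial) was an alternative. Predicted doublets were the cells with the highest Scrublet scores (scanpy 1.11.5), taken at a set rate of 0.8% per 1000 barcodes of a library. Scrublet's own threshold called 0 to 176 cells of a library. The predicted doublets stayed in, and made up 0 to 7.41% of the members of a baseline library and 6.61 to 7.73% of a transplant library.

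Counts were summed per library over members, and 78 genes that share a symbol with another gene were kept apart. Sums were tested with edgeR 4.0.16 (quasi-likelihood test, TMM scaling, false discovery rate of 0.05 after Benjamini-Hochberg adjustment over all tested genes) in R 4.3.3 with limma 3.58.1, with sex as a term at baseline. Log2 fold changes are given with an SE, taken as the absolute log2 fold change over the square root of the F value of the test. The words "lost without" a library mean an adjusted p over 0.05 in the fit without it. DESeq2 1.42.0 was an alternative. Shares and antibodies were tested by exact permutation in Python 3.11.15, with exact Clopper-Pearson 95% intervals that cover counting error only. Where a count was 0, up to 3 counts could have been missed. The scripts were tested on simulated data.

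Genes were named when among the 10 largest changes of a contrast (5 for differences between cell classes or experiments) with a mean of at least 10 CPM, or from fixed gene lists. Members and lists were chosen with earlier results of these data known. Reads of overlapping genes and of near-identical copies, such as the basophil proteases, may be split between them.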

Additional observations from a re-analysis of the deposited data

Results flagged for a closer look

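The following genotype effects differed between the 2 experiments in a test of the difference itself (edgeR interaction term, Benjamini-Hochberg adjusted over all tested genes). The experiments also differ in age, transplantation, the sex of the libraries and the version of the counting software (Cell Ranger 7.2.0 at baseline and 6.1.2 after transplantation), and these cannot be told apart.

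Ezh2 fell further in Ezh2 KO after transplantation. Among members its log2 fold change against Control was -0.73 at baseline and -2.26 after transplantation, a difference of -1.53 (adjusted p = 0.0199), and among granule-high members the difference was -1.53 too (adjusted p = 0.0213). Seen as Jarid2 KO against Ezh2 KO, the difference was 1.56 in members (adjusted p = 0.019) and 1.57 in granule-high members (adjusted p = 0.0205).

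For 2 granule genes called higher in Ezh2 KO at baseline, Wfdc21 and Fcnb, the effect differed after transplantation. Wfdc21 had a log2 fold change of 3.38 at baseline and -2.09 after transplantation in members, a difference of -5.57 (adjusted p = 0.0374), and of 3.18 and -2.04 in granule-high members, a difference of -5.34 (adjusted p = 0.0362). The call in members was lost without either baseline Control library or without Ezh2 KO library 1 of the baseline. Fcnb went from 4.93 to -0.79 in granule-high members, a difference of -5.88 (adjusted p = 0.0213), and its baseline value rests on 1 UMI in the Control members.

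Of the 13 genes called for Ezh2 KO against Control in members, the 5 with the largest difference are named. Prdm16, a transcription factor of stem cells, went from -1.07 to 1.31, a difference of 2.39 (adjusted p = 0.0423). Auts2, a Polycomb-associated factor, went from 0.54 to 2.63, a difference of 2.09 (adjusted p = 0.0199). Chd7, a chromatin remodeller, went from 1.36 to -0.01, a difference of -1.40 (adjusted p = 0.0423). In granule-high members Tox, a transcription factor of lymphoid cells, went from -1.98 to 2.15, a difference of 4.28 (adjusted p = 0.0213). Its baseline value rests on 4 and 44 UMIs in Control and 5 and 6 in Ezh2 KO, and it passed the filter on low counts through the Control libraries alone. Slpi, a secreted inhibitor of neutrophil elastase, was the only call for Jarid2 KO against Control in members, with 1.16 at baseline and -0.52 after transplantation, a difference of -1.68 (adjusted p = 0.00884).

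With at least 2 UMIs of each granule gene required, 0 genes were called in members in any of the 3 contrasts, so all 15 calls were lost. Of the 7 calls named for members, 4 were lost in male transplant cells, those of Slpi, Wfdc21, Prdm16 and Chd7. Slpi was also lost without baseline Jarid2 KO library 1, Prdm16 without any of 3 libraries and Chd7 without any of 7, and the difference of Ezh2 between the knockouts without baseline Ezh2 KO library 2 or Jarid2 KO library 2. In granule-high male members 0 genes were called against Control, so the granule-high calls of Ezh2, Fcnb, Wfdc21 and Tox against Control were lost there, while that of Ezh2 between the knockouts was kept.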

How the results depend on the processing

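Counts of called genes are given for Jarid2 KO and Ezh2 KO, each against Control, and then for Jarid2 KO against Ezh2 KO, and the cause of a change was not tested. In baseline members (256, 80 and 95), DESeq2 called 98, 9 and 17, no filter on low counts gave 415, 191 and 204, removal of predicted doublets gave 134 for Ezh2 KO, and granule-high members gave 90 for Jarid2 KO. Leaving out 1 library gave 85 to 619, 32 to 351 and 40 to 313, with the lowest without Jarid2 KO 1, Ezh2 KO 1 and Ezh2 KO 1 and the highest without Control 2, Control 2 and Control 1. In transplant members (60, 552 and 1531), DESeq2 gave 185 for Jarid2 KO, no filter 194 and 942 against Control, a mean of at least 10 CPM 11, 109 and 281, male cells 8, 243 and 943, and granule-high members 10, 178 and 819. Leaving out 1 library gave 43 to 102, 290 to 740 and 715 to 1577.

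In granule-high members at baseline (90, 93 and 69), a limit of 1% gave 29 and 16 for Jarid2 KO against Control and against Ezh2 KO, DESeq2 gave 17, 18 and 7, and leaving out 1 library 15 to 105, 13 to 146 and 8 to 138. After transplantation (10, 178 and 819), male cells gave 0, 18 and 411, the 1% limit 5 and 110 against Control, DESeq2 36 for Jarid2 KO, and leaving out 1 library 14 to 22, 59 to 259 and 347 to 839.

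For members against other cells at baseline (493, 125 and 202), DESeq2 gave 194, 15 and 51, the 10 CPM filter 82 for Ezh2 KO, at least 2 UMIs of each granule gene 315 and 61 against Control, all non-members as other cells 348 between the knockouts, granule-high members 125, 74 and 79, and leaving out 1 library 191 to 508, 48 to 192 and 79 to 291. After transplantation (21, 6 and 33), RLE size factors gave 1 for Ezh2 KO, DESeq2 3, 1 and 3, no filter 37 and 12 against Control, the 10 CPM filter 3, 1 and 0, at least 2 UMIs 162, 135 and 203, doublet removal 12 and 1 against Control, all non-members 128, 39 and 162, granule-high members 139, 752 and 1511, granule-high male members 45, 331 and 838, and leaving out 1 library 17 to 126, 5 to 22 and 4 to 167. For the difference between experiments (1, 13 and 1), DESeq2 gave 17, 77 and 38, no filter 104, 266 and 158, at least 2 UMIs 0, 0 and 0, male cells 0 and 3 against Control, granule-high members 0 and 5, granule-high male members 0 and 0, a sex term at baseline 27 and 3 for the contrasts with Ezh2 KO, and leaving out 1 library 0 to 162, 7 to 25 and 0 to 6.

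The baseline member share difference of Jarid2 KO against Control (-0.494 points) turned to 0.029 when thinned and 0.018 for granule-high cells, and that against Ezh2 KO (-0.048) to 0.146 when thinned, 0.0505 with 2 UMIs and 0.1125 for granule-high cells. Leaving out 1 library gave -1.315 to 0.3265, -1.266 to 0.3745 and -0.1385 to 0.0425 points for member shares, and -0.3165 to 0.3525 and -0.429 to 0.24 for granule-high shares against Control. After transplantation the Jarid2 KO member share difference was -0.1 under the strict filter and -0.1 to 0.2 without 1 library. The granule-high share difference there went under the strict filter from -14.7 to -6.0 points for Ezh2 KO against Control. For Jarid2 KO against Control it went from 7.65 to 11.2 points. As a share of antibody UMIs the log2 ratios were -0.28 for CD117, 0.559 for CD48, -0.727 for CD201, -0.759 for CD135 and -1.56 for Sca1, and in granule-high members -0.264 for CD201 and -0.425 for CD135. Leaving out 1 library gave -0.3 to 0.0933 for CD150, -0.075 to 0.211 for CD201 and -0.0481 to 0.185 for CD135.

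Of the named genes, Prss34 in granule-high baseline members of Jarid2 KO against Control ranged from -14.38 to 1.15 without 1 library, turning without Control 2. Against other cells after transplantation, between the knockouts, where few other cells remain, Prg2 (4.47) turned to -0.074 with doublets removed and -0.33 in granule-high male members, and Mcpt8 (2.13) to -0.59 and -0.23 in granule-high members and granule-high male members. Library 1 is male and library 2 female at baseline, so the number pairs libraries by sex: same-sex deviations correlated by 0.161, 0.163 and 0.286, and without this block the counts were 232, 52 and 72. After transplantation same-numbered knockout libraries correlated by 0.0259, so the numbers did not pair them, and the replicate block gave 1077 (members) and 781 (granule-high) between the knockouts. Few cells limit the baseline: Control library 1 held 30 members.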
